A study of Homo sapiens with 27 samples.

Results

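The expression of 10 genes that mark or control the epithelial and mesenchymal states was examined in 27 RNA sequencing libraries of 2 human cancer cell lines. The genes were CDH1, CDH2, VIM, ZEB1, ZEB2, SNAI1, SNAI2, TWIST1, EPCAM and ESRP1, and they were found by matching the Entrez ID of each row of the count table to its symbol, which gave 10 of 24566 rows. MDA-MB-231, an established breast adenocarcinoma line, had 4 groups (untreated, CKI, 5-FU, and CKI plus 5-FU) and A431, an established epidermoid carcinoma line, had 5 (untreated, vehicle control, CKI, doxorubicin, and CKI plus doxorubicin). Each group had 3 replicates, and treatment lasted 48 h. CKI, compound kushen injection, is an extract of the herbs Kushen and Baituling and was given at 1 mg/ml. The study's methods instead give 2 mg/ml, as total alkaloid, for its cell assays and transcriptome work. Whether the 1 mg/ml is on that basis is not known here. 5-FU, fluorouracil, is an antimetabolite that blocks thymidylate synthesis and was given at 10 ug/ml. Doxorubicin is an anthracycline that poisons topoisomerase, and its dose is not given here because the labels do not assign one. The composition of the vehicle is not stated. Each line is a single established line with no genetic change added, and the labels do not say whether replicates came from separate cultures, so p-values measure the spread between these libraries, which may be technical. In bulk RNA a change in the share of cells that express a gene and a change in its level per cell cannot be told apart. Comparisons within a line share control libraries, so their results are not independent of each other.

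In the epithelial state, cells are joined by junctions built on the cadherin encoded by CDH1, carry the adhesion protein encoded by EPCAM, and splice many transcripts in an epithelial pattern through the RNA-binding protein encoded by ESRP1. In the mesenchymal state, the cadherin encoded by CDH2 and the intermediate filament protein encoded by VIM are typical. The transition between the states is driven by transcription factors of the SNAI, ZEB and TWIST families. SNAI1, SNAI2, ZEB1 and ZEB2 encode zinc finger proteins that bind E2-box letters in the promoter of CDH1 and repress it, and TWIST1 encodes a basic helix-loop-helix protein. The miR-200 family and miR-205 are microRNAs of epithelial cells that pair with the 3' UTRs of ZEB1 and ZEB2 and lower their products, and the ZEB proteins in turn repress the miR-200 genes.

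The mature microRNAs are shown because ZEB1 and ZEB2, with which they pair, were among the members whose levels kept the lines apart. Sequences were taken from RefSeq (GRCh38.p14), are written 5' to 3', and have the seed (bases 2 to 8) in capitals. They fall into 3 groups by seed. The seed AAUACUG is shared by 3 of them:
hsa-miR-200b-3p: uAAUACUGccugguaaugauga
hsa-miR-200c-3p: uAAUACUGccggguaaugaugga
hsa-miR-429: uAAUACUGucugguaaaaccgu
The seed AACACUG is shared by the next 2 sequences:
hsa-miR-200a-3p: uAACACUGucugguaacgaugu
hsa-miR-141-3p: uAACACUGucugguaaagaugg
The last sequence has the seed CCUUCAU:
hsa-miR-205-5p: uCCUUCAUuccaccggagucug
The genes of miR-200b, miR-200a and miR-429 lie together on chromosome 1 (1167160 to 1169076, GRCh38.p14), those of miR-200c and miR-141 on chromosome 12 (6963742 to 6964176), and that of miR-205 on chromosome 1 (209432166 to 209432187).

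Letters complementary to these seeds were counted in the 3' UTRs of the canonical GRCh37 transcripts of ZEB1 (2540 bases) and ZEB2 (5370 bases), on the transcript strand. CAGTATT, the match to AAUACUG, occurred 6 times in ZEB1 and 5 times in ZEB2, while 16.1% of 19422 annotated 3' UTRs held it at all and 0.01% held it at least as often as ZEB1. CAGTGTT, the match to AACACUG, occurred 3 times in ZEB1 and 4 times in ZEB2, and was present in 18.2% of the UTRs. ATGAAGG, the match to the miR-205 seed, was found once in ZEB1 and not in ZEB2, and was present in 11.6% of the UTRs. UTRs of greater length hold more matches, and a match is a description of the letters only. The first pair of CAGTATT matches in each UTR and the ATGAAGG match are shown with the match in capitals:
ZEB1 3' UTR, chr10:31816547-31816568, plus strand: ttgttttatcttatCAGTATTa
ZEB1 3' UTR, chr10:31816641-31816662, plus strand: tgctaaatccgcttCAGTATTt
ZEB2 3' UTR, chr2:145146619-145146640, minus strand: gcactaccatacatCAGTATTt
ZEB2 3' UTR, chr2:145146556-145146577, minus strand: gcactacaatgcatCAGTATTa
ZEB1 3' UTR, chr10:31816996-31817017, plus strand: atatgtggtaacatATGAAGGa
The E2 box (CACCTG, or CAGGTG on the other strand) was searched on both strands in the 250 bases before annotated starts (RefSeq, GRCh38.p14), using the windows of ZEB1, ZEB2, VIM and CDH2. It was present in 2 of 7 windows of ZEB1, 3 times in all, and in none of the 4 windows of the other 3 genes. Over all promoters it was in 17.5% of 35116 windows, so that 2 of 11 windows is close to the background. These 3 stretches of ZEB1 are shown because ZEB1 and SNAI proteins recognise these letters:
ZEB1 upstream, chr10:31318350-31318375, plus strand: gaggtgacagCAGGTGagggccgggt
ZEB1 upstream, chr10:31318966-31318989, plus strand: ccccaccaCACCTGaggaaaactt
ZEB1 upstream, chr10:31319121-31319146, plus strand: tgtcgtaaacCAGGTGcggtggggag

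On GRCh37, CDH1 (Entrez ID 999) lies on chromosome 16 from 68771195 to 68869440, CDH2 (1000) on chromosome 18 from 25512843 to 25757910, and VIM (7431) on chromosome 10 from 17270240 to 17279592. ZEB1 (6935) lies on chromosome 10 from 31607424 to 31818742 and ZEB2 (9839) on chromosome 2 from 145121931 to 145278624. SNAI1 (6615) lies on chromosome 20 from 48599517 to 48605423, TWIST1 (7291) on chromosome 7 from 19060614 to 19157259, and EPCAM (4072) on chromosome 2 from 47572297 to 47614740. SNAI2 (6591) and ESRP1 (54845) are given by ID only. Genes of the opposite strand shared 24.6% of the annotated exon bases of VIM and from 3.6% to 7.1% of those of CDH1, CDH2, ZEB1, SNAI2 and TWIST1. Overlapping genes of both strands shared 16.3% of those of ZEB2. Per the labels the libraries were unstranded, so reads of VIM and of its antisense gene VIM-AS1 cannot be told apart where they overlap.

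Levels were read as CPM, reads per 1e+06 counted reads after TMM scaling (trimmed mean of M values). The libraries held from 17757206 to 22809339 counted reads. On these totals 3 reads, the limit that a count of 0 allows, corresponded to 0.132 to 0.169 CPM before TMM scaling. Intervals on counts cover counting error only. The summed level of 7 keratinocyte markers was 6880 to 8660 CPM in the A431 libraries and 155 to 366 CPM in the MDA-MB-231 libraries, and all 7 were above 1 CPM in every A431 group. Of 7 markers of luminal breast epithelium, KRT8, KRT18, KRT19, ERBB2 and GATA3 were above 1 CPM in every group of both lines. ESR1 was at 0 in untreated MDA-MB-231 cells and above 1 CPM in every A431 group other than untreated. PGR was above 1 CPM in no group and at 0 in untreated, vehicle control and CKI A431 cells. Untreated MDA-MB-231 replicate 1 stood apart from the other 2 replicates of its group, with 70.8 and 81.8 times the sampling variance per gene, against 1.83 to 28.3 for every other pair of replicates.

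Untreated A431 cells had high levels of the epithelial members and low levels of VIM and the ZEB genes, and untreated MDA-MB-231 cells had the reverse. CDH1 was at 362, 369 and 392 CPM in untreated A431 and at 1.36, 2.03 and 2.02 CPM in untreated MDA-MB-231 cells. EPCAM was at 275, 308 and 278 CPM in A431 and at 16.7, 13.7 and 13.7 CPM in MDA-MB-231 cells. ESRP1 was at 196, 206 and 215 CPM in A431, while the 3 MDA-MB-231 libraries held 1, 3 and 2 reads of it. The ranges of the lines did not overlap for any of these 3 epithelial genes. In the edgeR quasi-likelihood fit of the 6 untreated libraries, CDH1 was higher in A431 by 7.64 on the log2 scale (SE 0.17, adjusted p = 3.6e-08), a 199-fold difference. EPCAM was higher by 4.24 (SE 0.12, adjusted p = 8.2e-08) and ESRP1 by 10.89 (SE 0.19, adjusted p = 2.4e-08). Counts alone gave ESRP1 a ratio of 1990, with a counting interval of 913 to 5420.

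VIM was at 1960, 1640 and 1600 CPM in untreated MDA-MB-231 and at 6.21, 8.24 and 7.24 CPM in untreated A431 cells. ZEB1 was at 68.7, 62.9 and 63.4 CPM in MDA-MB-231 cells, where the 3 A431 libraries held 7, 7 and 10 reads of it. ZEB2 was at 13.6, 13 and 13.9 CPM in MDA-MB-231 cells, against 8, 7 and 2 reads in A431. VIM was therefore 248-fold lower in A431 (log2 fold change -7.95, SE 0.17, adjusted p = 3.1e-08). ZEB1 was 141-fold lower (-7.14, SE 0.16, adjusted p = 3.6e-08) and ZEB2 41.3-fold lower (-5.37, SE 0.27, adjusted p = 1.1e-06). CDH2 was near the limit of detection in both lines, with 3, 16 and 11 reads in untreated MDA-MB-231 and 1, 1 and 0 in untreated A431 libraries, and it did not pass the filter on low counts of this fit. The ratio of its summed counts was 13.2 in favour of MDA-MB-231, with a counting interval of 3.35 to 114.

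The SNAI and TWIST genes did not follow the division of the ZEB genes. SNAI2 was at 42.3, 40.7 and 37.2 CPM in untreated MDA-MB-231 and at 36.6, 37.9 and 43.5 CPM in untreated A431 cells. Its difference was -0.08 on the log2 scale (95% interval -0.32 to 0.16, adjusted p = 0.50), and the ranges overlapped. SNAI1 was at 7.52, 8.66 and 9.88 CPM in MDA-MB-231 and at 4, 3.74 and 4.21 CPM in A431 cells, 2.26-fold lower in the latter (log2 fold change -1.18, SE 0.16, adjusted p = 0.00025). TWIST1 had no read in the 3 untreated MDA-MB-231 libraries and 46, 42 and 42 reads in those of untreated A431. It was at least 49.2-fold higher in A431, taking 3 reads over the 3 libraries as the limit (adjusted p = 3.7e-05). A431 thus held TWIST1 and both SNAI genes beside a high CDH1 level. In all, 4 of the 9 members tested were higher and 4 were lower in A431, where 19.7% of 14181 genes were higher and 21.8% were lower.

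**Figure D1:**
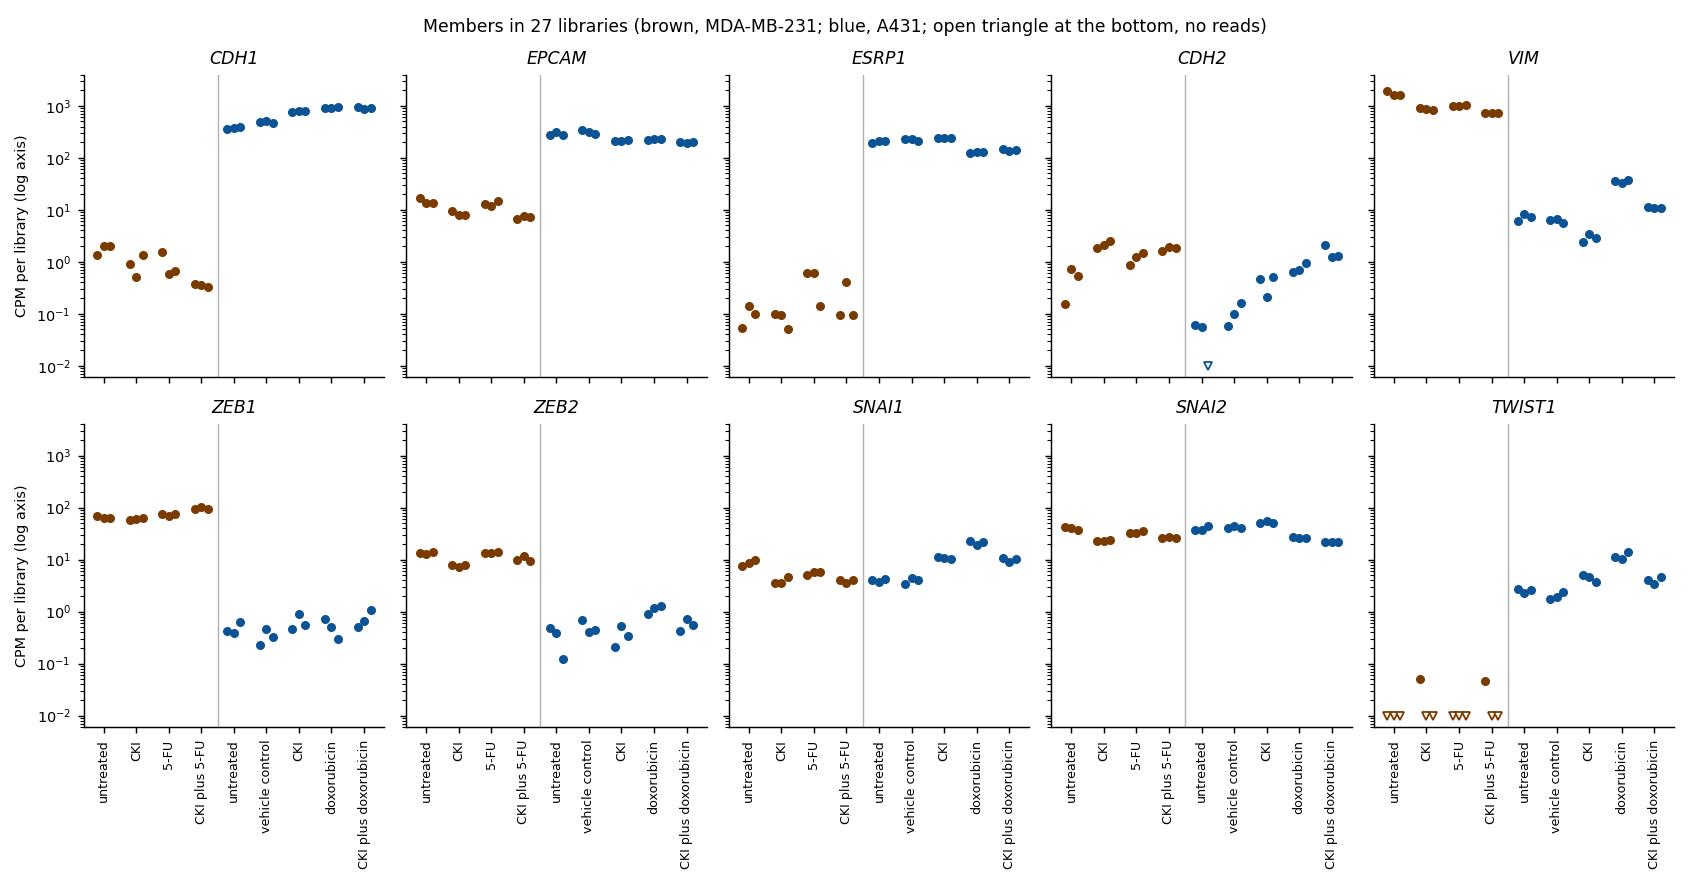
CPM of the 10 members in each of the 27 libraries on a log axis, with MDA-MB-231 groups on the left of each panel (brown), A431 groups on the right (blue), and libraries without a read as open triangles at the bottom. CDH1, EPCAM and ESRP1 sit high in A431 and VIM, ZEB1 and ZEB2 high in MDA-MB-231, while the SNAI2 points of both lines lie between 21.6 and 56 CPM.

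Per kilobase of canonical transcript, VIM was the most abundant member in untreated MDA-MB-231 cells, at a mean of 805 CPM per kilobase, followed by SNAI2 at 18.4 and ZEB1 at 10.9. In untreated A431 cells EPCAM led at 185 CPM per kilobase, followed by CDH1 at 77.8, ESRP1 at 54.6 and SNAI2 at 18. The lists for the wider programme were chosen, like the members, with earlier results of these data known. They divided the lines in the same way as the members, which is therefore not independent support. Of 29 epithelial junction, polarity and surface genes tested, 24 were higher in A431 and none was lower, with a median log2 difference of 3.45 against -0.02 over all genes. Over all genes tested, 19.7% were higher and 21.8% were lower. CDH3, which encodes P-cadherin, was higher by 10.42 and the tight junction gene CLDN1 by 5.67. Of 15 epithelial transcription and splicing factors tested, 12 were higher and 1 was lower, with a median of 6.5, or 5.84 with the gene that had no read in 1 line set at its bound. ELF3, a regulator of epithelial differentiation, was higher by 6.5, and the endoderm factor FOXA2 was lower (-4.46). Of 28 mesenchymal structural and surface genes, 19 were lower in A431 and 1 was higher, with a median of -2.34. The matricellular gene CCN2 and the collagen crosslinking enzyme gene LOX were lower (-7.28 and -6.27), and the gelatinase gene MMP2 was the exception, higher by 7.18.

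Of the other transcription factors of the transition, 6 of 14 were lower and 3 higher in A431, ETS1 being lower (-2.02). Over all genes 21.8% were lower and 19.7% were higher. In the TGF-beta pathway, whose ligands are inducers of the transition, 8 of 25 genes were lower and 3 higher, BAMBI and LTBP1 being lower (-7.76 and -5.78). Among cadherin-bound catenins and partners 3 of 16 were higher and 3 lower, and the p120 catenin gene CTNND1, whose product holds cadherins at the membrane, was higher by 1.55. Of 20 partners and stability factors of the SNAI and ZEB proteins 3 were higher and 1 was lower, and KDM1A, the demethylase that SNAI1 recruits, was higher by 1.43. None of 11 splicing factors that act beside ESRP proteins passed both thresholds.

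The host transcripts of the microRNAs were looked up after the values of the members had been seen. MIR205HG, the host of miR-205, had no read in the untreated MDA-MB-231 libraries and was at 224, 237 and 180 CPM in untreated A431, at least 4160-fold higher. MIR200CHG, the host of miR-200c and miR-141, had no read in untreated MDA-MB-231 and 34, 33 and 22 reads in untreated A431, at least 33.7-fold higher. The row of miR-429 held 15, 12 and 8 reads in untreated A431 and none in any of the 12 MDA-MB-231 libraries. These rows count fragments of host or precursor RNA. The mature microRNAs, which are too short for this library type, were not measured.

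**Figure D2:**
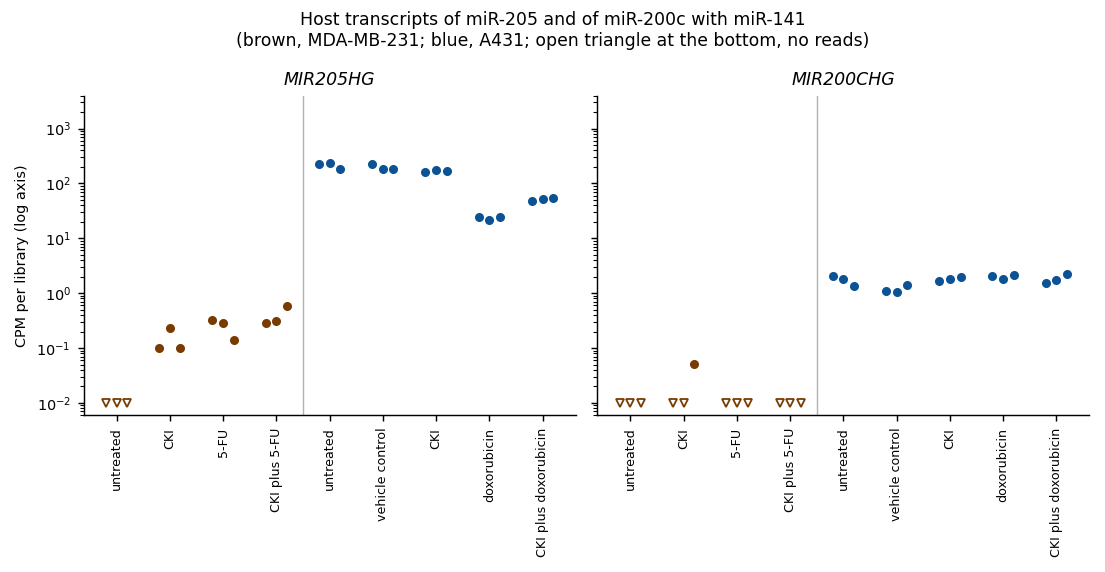
CPM of MIR205HG and MIR200CHG per library on a log axis, with MDA-MB-231 groups on the left of each panel, A431 groups on the right, and open triangles for libraries without a read. MIR205HG falls from 180 to 237 CPM in untreated A431 to 21.6 to 24.4 CPM with doxorubicin, while MIR200CHG stays between 1.06 and 2.2 CPM in the A431 libraries.

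In MDA-MB-231 cells CKI lowered VIM and SNAI1 and raised CDH2 from a very low level, while CDH1, low in both groups, did not pass the test. VIM went from 1960, 1640 and 1600 CPM in untreated to 894, 850 and 822 CPM in CKI libraries, and SNAI1 from 7.52, 8.66 and 9.88 to 3.54, 3.49 and 4.59 CPM. The CKI libraries lay below all untreated ones for both genes. In the fit of the 12 MDA-MB-231 libraries, VIM fell by 1.03 on the log2 scale (SE 0.075, adjusted p = 1.4e-06) and SNAI1 fell by 1.18 (SE 0.14, adjusted p = 5.1e-05). CDH2 had 36, 45 and 49 reads in CKI libraries against 3, 16 and 11, and rose by 2.1 (SE 0.34, adjusted p = 0.00051) to 2.13 ± 0.326 CPM. ZEB2, SNAI2 and EPCAM passed the adjusted p but not the fold threshold, with log2 fold changes of -0.83, -0.8 and -0.81. ZEB1 had a value of -0.11 (95% interval -0.24 to 0.03, adjusted p = 0.21) while CDH1, at 0.928 ± 0.425 CPM with CKI against 1.8 ± 0.384 CPM, had -0.98 (SE 0.37, adjusted p = 0.057) at 11 to 27 reads per CKI library.

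Of the 8 members tested, 1 was higher and 2 were lower, where 3.76% of 13999 genes were higher and 2.21% were lower. TWIST1 and ESRP1 were not tested for lack of reads, with at most 1 read of TWIST1 in any MDA-MB-231 library. VIM stood close to the fold threshold, at -0.93 without untreated replicate 1 and -1 without CKI replicate 3, and CDH1 passed both thresholds without either of them, at -1.14 and -1.36. VIM-AS1 had 9.95 ± 1.95 CPM in untreated and 14.5 ± 0.53 CPM in CKI libraries (log2 fold change 0.54, adjusted p = 0.0062), in the other direction from VIM.

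Of 27 epithelial junction, polarity and surface genes, 5 rose with CKI in MDA-MB-231 cells and 1 fell, with a median log2 fold change of 0.64 against -0.01 over all genes. Over all genes tested, 3.76% rose and 2.21% fell. CDS1 rose from 1.6 to 8.8 CPM (2.45), while the desmosome plaque gene PKP3 fell by 1.3. Of 28 mesenchymal genes 1 rose and 2 fell, with a median of -0.16. The fibronectin gene FN1 fell from 1180 to 547 CPM (-1.12) and the collagen gene COL1A2 fell by 1.91, while CCN2 rose by 1.15. Among other factors of the transition SOX4 and PRRX1 fell by 1.43 and 2.45 and SNAI3 rose by 3.05, 3 of 13 in all. In the TGF-beta list 1 of 25 rose and 1 fell, namely TGFBR3 (1.37) and TGFB3 (-1.83). GRHL1, an epithelial factor, was the 1 of 10 of its list to rise (1.55). No gene of the catenin, SNAI and ZEB partner or splicing lists passed both thresholds. The summed level of fibroblast markers was 21.6 to 32.3 CPM in untreated and 39.5 to 42.9 CPM in CKI libraries, with 3 and 4 of 8 markers above 1 CPM and DCN at 0 with CKI. The luminal markers were at 2410 to 2590 CPM in untreated and 1790 to 1830 CPM in CKI libraries. The keratinocyte markers were at 227 to 257 and 300 to 334 CPM, with EGFR alone above 1 CPM in both groups. The leukocyte markers were at 14.5 to 16.2 and 8.38 to 10.7 CPM, with CD14 alone above 1 CPM. Their part in these results was not tested.

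5-FU left most members below the fold threshold in MDA-MB-231 cells. CDH2 alone passed both thresholds, with 19, 26 and 31 reads against 3, 16 and 11 in untreated libraries, a rise of 1.28 (SE 0.37, adjusted p = 0.011). The ranges did not overlap. VIM was at 988, 1000 and 1040 CPM, below all untreated libraries, with a log2 fold change of -0.78 (SE 0.075, adjusted p = 3.5e-06). SNAI1 and SNAI2 also had adjusted p under 0.05 at smaller folds (-0.66 and -0.27), and ZEB1 had 0.16 (adjusted p = 0.042). ZEB2 and EPCAM had values of -0.02 and -0.15, with 95% intervals of -0.22 to 0.19 and -0.4 to 0.1. CDH1 was at 1.56, 0.572 and 0.667 CPM, overlapping the untreated libraries (-0.94, SE 0.37, adjusted p = 0.043). ESRP1 held 13, 13 and 3 reads against 1, 3 and 2, a ratio of 5.08 with a counting interval of 2.07 to 15. Thus 1 of 8 members tested was higher and none lower, where 6.01% of genes were higher and 7.31% were lower. The rise of CDH2 was 0.89, under the fold threshold, without untreated replicate 1, and had an adjusted p of 0.054 with only these 2 groups in the fit. CDH1 passed both thresholds without untreated replicate 1 (-1.1) and without 5-FU replicate 1 (-1.53).

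Both sides of the epithelial and mesenchymal lists had members that fell with 5-FU. Over all genes tested, 6.01% rose and 7.31% fell. Of 27 junction, polarity and surface genes 5 fell and 1 rose (median 0.09), including the laminin gene LAMA3 (-1.39), and CLDN1 rose (1.25). Of 28 mesenchymal genes 5 fell and none rose (median -0.48 against 0 over all genes), among them CCN2 (-1.39) and the cadherin gene CDH11 (-1.21). SOX4 and HMGA2, a chromatin protein gene, fell by 1.46 and 1.32 among 3 of 13 other factors of the transition. In the TGF-beta list 5 of 25 fell, including the ligand TGFB2 (-1.6) and the ubiquitin ligase SMURF2 (-1.33), and TGFBR3 rose by 1.18. Of 15 catenins and partners 3 fell, including CTNNBIP1 (-1.21) and the sheddase ADAM10 (-1.06). The splicing factor gene SRSF1 fell by 1.1, the 1 of 11 in its list. Among 10 epithelial factors GRHL1 rose by 1.18 and 1 gene fell, and none of 20 SNAI and ZEB partners passed. GRHL1 lost its call without untreated replicate 1 (0.84) or 3 (1.09, adjusted p = 0.052) or 5-FU replicate 2 (1.05, adjusted p = 0.063), and ADAM10 without untreated replicate 1 (-0.96). Of 7 keratinocyte markers 5 were above 1 CPM with 5-FU, among them KRT5, KRT14 and KRT17, and 1 was in untreated cells, while the sum of the 7 markers was 155 to 178 CPM with 5-FU and 227 to 257 CPM in untreated cells. With 5-FU the luminal markers were at 1320 to 1370 CPM and the leukocyte markers at 5.91 to 7.39 CPM. Their part in these results was not tested.

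Adding CKI to 5-FU lowered CDH1 and left the other members under the fold threshold. CDH1 had 8, 8 and 7 reads in CKI plus 5-FU libraries and 34, 12 and 14 in 5-FU libraries, a fall of 1.39 on the log2 scale (SE 0.49, adjusted p = 0.031). That call rested on single libraries, with -0.8 (adjusted p = 0.19) without 5-FU replicate 1, and with -1.34 to -1.42 (adjusted p from 0.069 to 0.08) without replicate 1, 2 or 3 of CKI plus 5-FU. EPCAM was at 6.63, 7.56 and 7.26 CPM against 13.2, 11.9 and 14.5 CPM, with a log2 fold change of -0.89 (SE 0.12, adjusted p = 8.7e-05). ZEB1 was at 94.1, 103 and 93.3 CPM against 74.6, 69.5 and 74 CPM, the highest of the 4 MDA-MB-231 groups, with 0.41 (SE 0.062, adjusted p = 0.00019). VIM, ZEB2, SNAI1 and SNAI2 had adjusted p under 0.05 at values from -0.52 to -0.34, and CDH2 had 0.58 (adjusted p = 0.11). None of 8 members was higher and 1 was lower, where 5.26% of genes were higher and 4.51% were lower. Of the lists, 4 of 27 junction genes rose and 1 fell (LAMA3 1.07, PKP3 -1.52), 2 of 28 mesenchymal genes rose and 1 fell (CCN2 2.15, VCAN 1.33, TNC -1.16), and ELF3, FOXC1 and SMURF2 were the only members of the epithelial factor, transition factor and TGF-beta lists past both thresholds, at -2.42, -1.04 and 1.21. No gene of the catenin, SNAI and ZEB partner or splicing lists passed. VCAN lost its call without 5-FU replicate 2 or 3 or CKI plus 5-FU replicate 1 or 2 (1.13 to 1.3, adjusted p from 0.057 to 0.089). FOXC1 ended under the fold threshold without replicate 2 of either group (-0.97 and -0.99) and with the GC and length offsets (-0.95). The sum of the 7 keratinocyte markers was 347 to 366 CPM with CKI plus 5-FU against 155 to 178 CPM with 5-FU. The number of them above 1 CPM went the other way, from 5 with 5-FU to 2, KRT5 and EGFR, with CKI plus 5-FU. The leukocyte markers were at 4.44 to 4.75 against 5.91 to 7.39 CPM. Their part in these results was not tested.

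The effect of CKI on CDH2 differed with 5-FU present. The interaction, the change with CKI in 5-FU cells less the change with CKI in untreated cells, was -1.52 for CDH2 (SE 0.46, adjusted p = 0.025). No member had a higher interaction and 1 of 8 had a lower one, where 3.04% of genes were higher and 3.81% were lower. The adjusted p was 0.054 to 0.069 without CKI replicate 3, 5-FU replicate 2, 5-FU replicate 3 or CKI plus 5-FU replicate 1, where the value was -1.34 to -1.49. VIM, ZEB1, ZEB2, SNAI1 and SNAI2 had interactions from 0.46 to 0.66 with adjusted p from 0.0011 to 0.025, under the fold threshold. CDH1 and EPCAM had -0.41 and -0.08, with 95% intervals of -1.78 to 0.97 and -0.45 to 0.3. In the junction list 6 of 27 interactions were lower, including CLDN1 (-1.55) and CGN (-1.42), and none was higher. In the mesenchymal list 3 of 28 were higher, including NT5E (1.02), and COL1A1 was lower (-1.37). HMGA2 and SOX4 (1.65 and 1.17), PMEPA1 and SMURF2 (1.54 and 1.09) and SRSF1 (1.21) were higher in their lists. ELF3 (-1.89), SNAI3 (-2.12) and, in the TGF-beta list, TGFBR3 (-1.37) were lower. The call of SNAI3 rested on single libraries. It was -1.31 (adjusted p = 0.2) without 5-FU replicate 1, and its adjusted p was 0.057 to 0.067 without untreated replicate 3, CKI replicate 2 or 3, or CKI plus 5-FU replicate 2 or 3, at -2.02 to -2.12. NT5E ended under the fold threshold with the GC and length offsets and without untreated replicate 1 (0.93 each) or CKI plus 5-FU replicate 2 (0.99), and SMURF2 with the offsets (0.99).

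**Figure D3:**
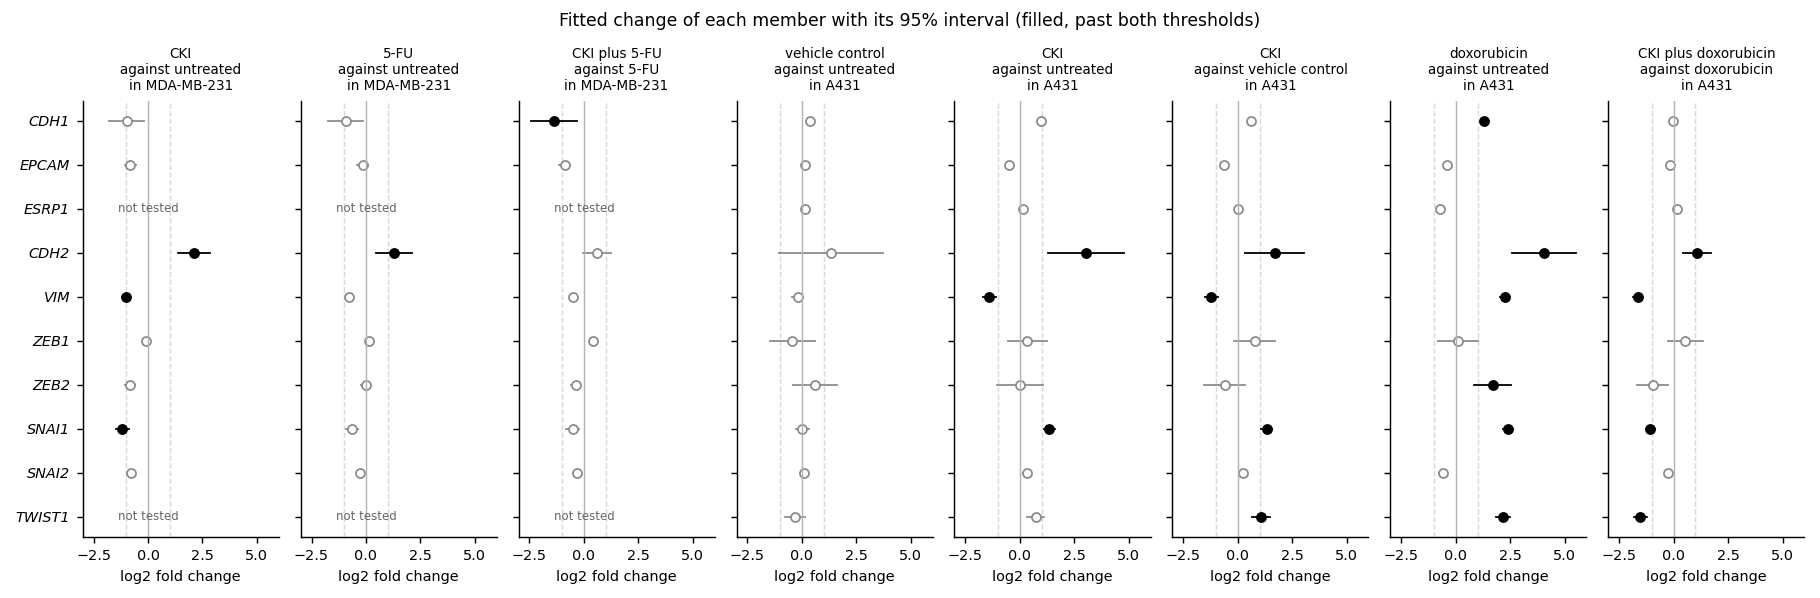
Fitted log2 fold change (x axis) of each member with its 95% interval in the 3 MDA-MB-231 and 5 A431 comparisons between groups, filled where adjusted p was under 0.05 and the absolute log2 fold change over 1. SNAI1 lies at -1.18 with CKI in MDA-MB-231 and at 1.35 with CKI in A431 cells, and 6 of the 10 members are filled on the right with doxorubicin.

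In A431 cells CKI raised SNAI1 and CDH2 and lowered VIM. SNAI1 was at 4, 3.74 and 4.21 CPM in untreated, 3.41, 4.46 and 4.03 CPM in vehicle control and 11.4, 10.6 and 10.4 CPM in CKI libraries. All CKI libraries lay above both control groups. The rise was 1.35 against untreated cells (SE 0.12, adjusted p = 1.3e-09) and 1.34 against the vehicle control (SE 0.12, adjusted p = 1.4e-09). VIM was at 2.39, 3.42 and 2.92 CPM with CKI, against 6.21, 8.24 and 7.24 CPM in untreated and 6.41, 6.74 and 5.67 CPM in vehicle control libraries. It fell by 1.41 (SE 0.15, adjusted p = 9.4e-09) and by 1.21 (SE 0.15, adjusted p = 1.5e-07) respectively. CDH2 had 9, 4 and 9 reads with CKI against 1, 1 and 0 in untreated libraries, a ratio of 10.1 with a counting interval of 2.48 to 88.4 (adjusted p = 0.0018 in the fit). TWIST1 was at 4.99, 4.68 and 3.71 CPM against 1.73, 1.88 and 2.4 CPM in the vehicle control, a rise of 1.06 (SE 0.19, adjusted p = 4.4e-05), and its value against untreated cells was 0.72 (SE 0.19, adjusted p = 0.0016), or 1.04 with offsets for GC content and length.

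CDH1 went with CKI to 777, 793 and 786 CPM from 362, 369 and 392 CPM in untreated libraries, a log2 fold change of 0.98 that ended just under the fold threshold (SE 0.051, adjusted p = 8e-14). It was 1 with RLE factors and with DESeq2, 1.01 with only these 2 groups in the fit, and 1.02 without untreated replicate 3, all past the threshold. Against the vehicle control, at 480, 501 and 477 CPM, it was 0.59 (SE 0.051, adjusted p = 5.8e-10). EPCAM had -0.51 and -0.63, SNAI2 had 0.31 and 0.23, and ESRP1 had 0.14 and -0.01 against untreated and vehicle control cells. ZEB1 held 9, 17 and 10 reads and ZEB2 4, 10 and 6 reads with CKI, with 95% intervals of -0.56 to 1.25 and -1.07 to 1.08 against untreated cells. Of 10 members tested 2 were higher and 1 was lower against untreated cells, where 12% of 15881 genes were higher and 10.4% were lower. Against the vehicle control 3 were higher and 1 was lower, where 11.3% of genes were higher and 8.22% were lower. These comparisons share the CKI libraries. Against the vehicle control, TWIST1 was 0.96 to 1 without CKI replicate 1, vehicle control replicate 1 or vehicle control replicate 2, and CDH2, at 1.69, had adjusted p from 0.061 to 0.077 without CKI replicate 1 or 3 or vehicle control replicate 1 or 2.

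Between the vehicle control and untreated cells none of the 10 members passed both thresholds, where 1.05% of genes were higher and 1.5% were lower. DESeq2 also gave 0 past both thresholds, and 2 members had an unadjusted p under 0.05 in edgeR. At adjusted p under 0.05 alone, the same 2 genes, CDH1 (0.39, adjusted p = 5e-06) and ESRP1 (0.15, adjusted p = 0.035), differed, CDH1 with no overlap between the groups. Differences between these groups followed GC content across genes (Spearman's rho -0.58 over 15741 genes, which are not independent), more than in any other comparison (-0.22 to 0.17). Genes of the lists that were higher in the vehicle control were CCN2 (3.15), THBS1 (1.22), SOX9 (1.38) and CLDN4 (1.07) among 5 in all, and none was lower.

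In the lists, genes of both states rose with CKI in A431 cells. Of all genes tested, 12% rose and 10.4% fell against untreated cells. Against the vehicle control 11.3% rose and 8.22% fell. Several of the counts below are near these shares. Of 29 junction, polarity and surface genes 8 rose against untreated cells and 1 fell, with a median of 0.56 against 0 over all genes. CLDN4, a tight junction claudin, rose from 307 to 1500 CPM (2.2) and the mucin gene MUC1 from 9.45 to 65.7 CPM (2.7), and PKP3 fell by 1.43. Of 31 mesenchymal genes 8 rose and none fell, with a median of 0.61, including FN1 (1.29). Against the vehicle control 5 of 29 junction genes rose, with CLDN3 at 4.07 and MUC1 at 2.61, and 5 of 31 mesenchymal genes rose, with MMP2 at 1.64 and COL1A1 at 1.45, while CCN2 fell by 2.54. The epithelial factors KLF4 and OVOL1 rose by 1.19 and 1.15 against untreated cells, 3 of 16, and FOXA2 by 1.61 against the vehicle control, 1 of 16. TWIST2, the paralog of TWIST1, fell (-2.44 and -1.54) against untreated and vehicle control cells, and SNAI3 rose by 1.9 and 2.51.

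The receptor gene TGFBR3 rose by 2.54 and 2.04 and the ligand gene TGFB3 fell by 1.23 against untreated cells, where 3 of 25 TGF-beta genes rose and 1 fell. Over all genes 12% rose and 10.4% fell in that comparison. Of catenins and partners 3 of 16 rose against untreated cells, including NECTIN4 (1.18) and PTPRK (1), and none of 16 passed against the vehicle control. Of the SNAI and ZEB partners, GSK3B, whose kinase marks SNAI1 for degradation, rose by 1.14 against untreated cells and PRKD1 by 1.28 and 1.66, and EZH2 fell by 1.56 and 1.69. SRSF1 fell by 1.16 and 1.11 and HNRNPM, a splicing factor that acts against ESRP1, by 1.02 against the vehicle control. Against untreated cells PTPRK was 0.74 and GSK3B 0.8 with the GC and length offsets, and PTPRK was 0.96 to 1, under the threshold, with no filter and without untreated replicate 1 or 2 or CKI replicate 3. PRKD1 had an adjusted p of 0.054 without CKI replicate 3, and HNRNPM was -0.94 to -0.98 with the offsets, RLE factors or DESeq2. The summed fibroblast markers were at 48.4 to 52.7 CPM with CKI, 22 to 29.5 CPM in untreated and 13.8 to 20.9 CPM in vehicle control libraries. Of the 8 markers 2, 1 and 1 were above 1 CPM, and THY1 was at 0 in all of these libraries. Most of the sum was COL1A1, at means of 48.2 CPM with CKI and 16.4 CPM in the vehicle control, a gene also in the mesenchymal list. The endothelial markers VWF and CDH5 summed to 40.3 to 42.9 CPM with CKI, 21.9 to 25.1 CPM in untreated and 17.4 to 19.3 CPM in vehicle control libraries, both genes being above 1 CPM in each group. The luminal markers were at 1650 to 1730 CPM with CKI, 2110 to 2360 CPM in untreated and 2030 to 2340 CPM in vehicle control libraries. Their part was not tested. The row of miR-200b held 24, 22 and 27 reads with CKI against 11, 7 and 1 in untreated and 1, 4 and 5 in vehicle control libraries, a rise of 1.69 (SE 0.48, adjusted p = 0.0033) and of 2.7 (SE 0.55, adjusted p = 0.00015). The row of miR-429, of the same cluster, had 0.88 (adjusted p = 0.046), under the fold threshold, against untreated cells and rose by 1.21 (adjusted p = 0.0098) against the vehicle control. MIR200CHG had values of -0.03 and 0.5 against these groups (adjusted p = 0.91 and 0.066). MIR205HG had values of -0.43 and -0.33 against the same groups, under the fold threshold.

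Doxorubicin raised 6 of the 10 members in A431 cells against untreated cells, where 23% of all genes were higher. CDH1 was the only epithelial member among them, and EPCAM and ESRP1 were lower, under the fold threshold. With the vehicle control as the control group 5 members were higher. SNAI1 was at 22.4, 19.4 and 22.1 CPM against 4, 3.74 and 4.21 CPM in untreated cells, a rise of 2.39 (SE 0.11, adjusted p = 9.7e-15). TWIST1 was at 11.4, 10.1 and 13.7 CPM against 2.75, 2.31 and 2.6 CPM, a rise of 2.18 (SE 0.16, adjusted p = 3e-11). VIM was at 35.2, 32.3 and 37.5 CPM against 6.21, 8.24 and 7.24 CPM, a rise of 2.24 (SE 0.1, adjusted p = 6.2e-15). No doxorubicin library overlapped an untreated one for these 3 genes. Even so, VIM remained far below the lowest MDA-MB-231 library, at 713 CPM.

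CDH1 rose as well, from 362, 369 and 392 CPM to 907, 925 and 947 CPM (1.28, SE 0.052, adjusted p = 4.6e-16). Against the vehicle control the rise of CDH1 was 0.89, under the fold threshold. CDH2 had 13, 14 and 19 reads against 1, 1 and 0, a ratio of 24.2 with a counting interval of 6.32 to 206 (adjusted p = 1.1e-05). ZEB2 had 18, 24 and 25 reads against 8, 7 and 2 and rose by 1.69 (SE 0.41, adjusted p = 0.00057). ZEB1, at 15, 10 and 6 reads, had a value of 0.09 with a 95% interval of -0.83 to 1.02. SNAI2, EPCAM and ESRP1 were lower at adjusted p under 0.05 but under the fold threshold, at -0.6, -0.38 and -0.71. The direction of SNAI2 was thus opposite to that of SNAI1, with 27.6, 25.9 and 25.8 CPM against 36.6, 37.9 and 43.5 CPM. None of the 10 members was lower past both thresholds, where 23% of genes were higher and 14.3% were lower.

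VIM-AS1 went from 5, 1 and 3 reads to 55, 63 and 54 reads with doxorubicin (3.94, SE 0.38, adjusted p = 2e-09), at 2.84 ± 0.245 CPM against 35 ± 2.63 CPM for VIM. MIR205HG, looked up after its values could be seen, fell from 224, 237 and 180 CPM to 24.2, 21.6 and 24.4 CPM (-3.22, SE 0.096, adjusted p = 2.4e-18). MIR200CHG had a value of 0.17 (SE 0.21, adjusted p = 0.46). The row of miR-429 fell from 15, 12 and 8 to 5, 2 and 1 reads (-2.34, SE 0.61, adjusted p = 0.0011), and that of miR-200b also fell (-2.11, SE 0.85, adjusted p = 0.023).

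Of 31 mesenchymal genes 12 rose and 6 fell with doxorubicin, with a median of 0.42 against 0.02 over all genes. Over all genes tested, 23% rose and 14.3% fell. The tropomyosin gene TPM1 rose from 112 to 480 CPM (2.07) and FN1 from 181 to 669 CPM (1.86), while the collagen gene COL5A1 and the moesin gene MSN fell by 1.75 and 1.02. Of 29 junction genes 2 rose and 3 fell, with a median of -0.16. CGN and CLDN3 rose by 1.23 and 1.82, and PKP3 fell by 3.23. Of 16 epithelial factors 4 rose, including GRHL3 (1.62) and OVOL1 (1.05), and 1 fell. Of 13 other factors of the transition 1 rose and 3 fell, including HMGA2 (-1.37) and TCF3 (-1.36). With the vehicle control as the control group OVOL1 was 0.48 and TCF3 -0.87, both under the fold threshold, and OVOL1 was also 1 with no filter on low counts. MSN was -0.93 to -0.98 with RLE factors, with DESeq2, with only these 2 groups in the fit and without untreated replicate 3.

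In the TGF-beta list 3 of 25 rose, including the pseudoreceptor BAMBI (6.36) and THBS1 (1.98), and 2 fell, the repressor SKI (-3.61) and LTBP3 (-1.15). Over all genes 23% rose and 14.3% fell with doxorubicin. With the vehicle control as the control group THBS1 was 0.75 and LTBP3 -0.66, under the fold threshold, and LTBP3 was -0.62 with the GC and length offsets. Among catenins and partners NECTIN3 rose (1.49) and 3 of 16 fell, including NECTIN1 (-2.99) and PTPRF (-2.05). Of 21 SNAI and ZEB partners SIRT1 rose (1.65) and 3 fell, including the corepressor CTBP1 (-2.37) and GSK3B (-1.45). Of 12 splicing factors NOVA2 rose (3.66) and 3 fell, including SRSF1 (-1.06) and MBNL1 (-1.29), SRSF1 being -0.97 with RLE factors, with DESeq2 and with only these 2 groups. The summed fibroblast markers were at 43.5 to 49 CPM and the leukocyte markers at 8.71 to 10.4 CPM with doxorubicin, against 22 to 29.5 CPM and 6.87 to 8.57 CPM in untreated cells. COL1A1 and COL3A1 of the 8 fibroblast markers and PTPRC and CD14 of the 4 leukocyte markers were above 1 CPM with doxorubicin, and PTPRC, LYZ, PDGFRA and THY1 were at 0 in untreated cells. The luminal markers were at 4520 to 4790 CPM with doxorubicin against 2110 to 2360 CPM, and the endothelial markers at 10.2 to 12 CPM against 21.9 to 25.1 CPM. Their part in these results was not tested.

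Adding CKI to doxorubicin lowered VIM, SNAI1 and TWIST1 and raised CDH2 further. VIM was at 11.2, 10.6 and 10.9 CPM against 35.2, 32.3 and 37.5 CPM with doxorubicin, a fall of 1.66 (SE 0.096, adjusted p = 1e-12). TWIST1 was at 4.08, 3.34 and 4.6 CPM against 11.4, 10.1 and 13.7 CPM, a fall of 1.53 (SE 0.14, adjusted p = 4.1e-09). SNAI1 was at 10.7, 8.83 and 10.3 CPM against 22.4, 19.4 and 22.1 CPM, a fall of 1.08 (SE 0.096, adjusted p = 1.6e-09). All 3 libraries of the combination lay below all doxorubicin libraries for each gene. CDH2 had 46, 26 and 26 reads against 13, 14 and 19 and rose by 1.05 (SE 0.31, adjusted p = 0.0044). SNAI1 ended under the fold threshold with offsets for GC content and length (-0.84) and without CKI plus doxorubicin replicate 2 (-0.99). CDH2 did so with the offsets (0.99) and without doxorubicin replicate 1 (0.94) or 2 (0.99) or CKI plus doxorubicin replicate 1 (0.76, adjusted p = 0.058).

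CDH1 had 945, 865 and 907 CPM in the combination, overlapping the doxorubicin libraries (-0.01, 95% interval -0.12 to 0.09). ZEB2, with 9, 15 and 11 reads, had a value of -0.96 (SE 0.35, adjusted p = 0.019), which passed the fold threshold with the GC and length offsets (-1.18) and without doxorubicin replicate 1 (-1.1) or CKI plus doxorubicin replicate 2 (-1.17). SNAI2, EPCAM and ESRP1 had values of -0.26, -0.17 and 0.16, and ZEB1 had 0.54 (95% interval -0.27 to 1.35). Of the 10 members 1 was higher and 3 were lower, where 6.89% of genes were higher and 8.03% were lower. MIR205HG rose from 24.2, 21.6 and 24.4 CPM to 47.6, 53 and 54.1 CPM (1.16, SE 0.096, adjusted p = 4.4e-10). The row of miR-429 rose from 5, 2 and 1 to 15, 20 and 10 reads (2.41, SE 0.59, adjusted p = 0.00087), and that of miR-200b rose by 2.02 (SE 0.83, adjusted p = 0.032), while MIR200CHG had -0.12 (adjusted p = 0.62). VIM-AS1 had a value of -0.87 (SE 0.23, adjusted p = 0.0025), in the same direction as VIM.

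**Figure D4:**
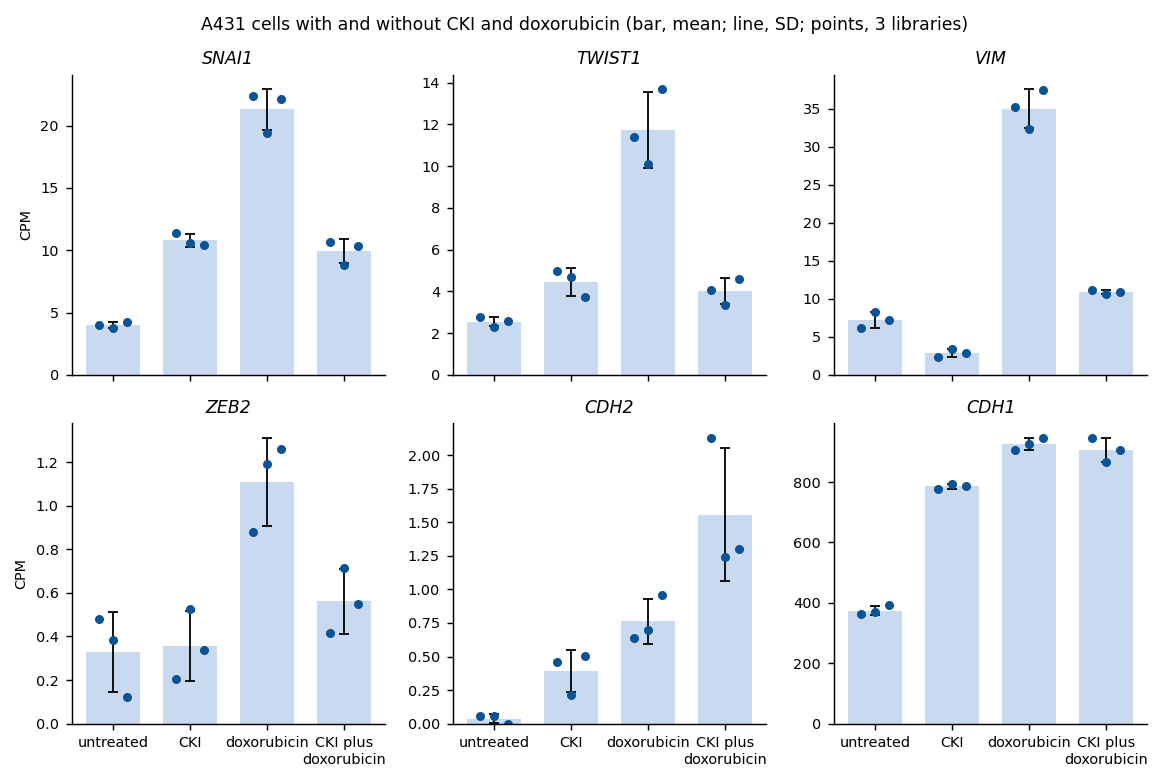
CPM of 6 members in A431 cells with and without CKI and doxorubicin, with bars for the mean of 3 libraries, lines for the SD and points for libraries. SNAI1 and TWIST1 are higher with CKI than without it in the absence of doxorubicin (10.8 against 3.98 CPM for SNAI1) and lower with CKI in its presence (9.95 against 21.3 CPM).

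When CKI was added to doxorubicin, of 29 junction genes 3 rose and none fell, with a median of 0.58 against 0.03 over all genes, CLDN4 (1.46) among them. Over all genes tested, 6.89% rose and 8.03% fell. Of 31 mesenchymal genes 2 rose, COL6A1 (1.21) and COL6A2 (1.7), and 2 fell, CCN2 (-1.42) and LOXL2 (-1.05), with a median of 0.43. OVOL2, a repressor of ZEB1, fell from 8.48 to 1.01 CPM (-3.04), the 1 of 16 epithelial factors to pass. Among other factors of the transition ETS1 and FOSL1 rose (1.43 and 1.33) and 2 fell, including FOXC1 (-1.07). In the TGF-beta list 3 of 25 rose, including SKI (2.01) and TGFBR2 (1.03), and 3 fell, including SMAD6 (-2.1) and TGFB3 (-1.06). NECTIN4 (1.95) and AFDN (1.19) rose among catenins and partners, and GSK3B (1.27) and CTBP1 (1.18) rose and EZH2 (-1.35) fell among SNAI and ZEB partners. None of the 12 splicing factors passed. With the GC and length offsets LOXL2 (-0.92), FOXC1 (-0.95), TGFBR2 (0.99) and TGFB3 (-0.99) ended under the fold threshold, as did LOXL2 (-0.99) and TGFB3 (-0.97) without CKI plus doxorubicin replicate 2 and TGFB3 (-0.99) without doxorubicin replicate 1. The endothelial markers were at 43.9 to 46.3 CPM with CKI plus doxorubicin against 10.2 to 12 CPM with doxorubicin, and the fibroblast markers at 57.6 to 64.6 against 43.5 to 49 CPM. Of the 8 fibroblast markers COL1A1 and COL3A1 alone were above 1 CPM in both groups. The luminal markers were at 2950 to 3150 against 4520 to 4790 CPM, and the leukocyte markers at 5.49 to 6.45 against 8.71 to 10.4 CPM. Their part in these results was not tested.

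The effect of CKI on SNAI1 and TWIST1 turned with doxorubicin. The interaction, the change with CKI in doxorubicin cells less the change with CKI in untreated cells, was -2.43 for SNAI1 (SE 0.16, adjusted p = 1.4e-11) and -2.25 for TWIST1 (SE 0.24, adjusted p = 3e-08). These were 2 of 10 members, where 8.56% of genes had a higher and 10.9% a lower interaction. CDH1 was at -0.99 (SE 0.072, adjusted p = 9.4e-11), just under the fold threshold, and passed it with RLE factors and with DESeq2 (-1.03 each) and without untreated replicate 3, doxorubicin replicate 1 or CKI plus doxorubicin replicate 1 (-1.03, -1.01 and -1.02). For VIM the fall with CKI did not differ detectably between the settings, with an interaction of -0.25 (95% interval -0.62 to 0.11, adjusted p = 0.23). CDH2 had -1.98 (adjusted p = 0.065) and passed both thresholds without CKI replicate 2 (-2.27) or without CKI plus doxorubicin replicate 1 (-2.28). SNAI2 and EPCAM had -0.57 and 0.34, and ZEB1, ZEB2 and ESRP1 had 0.2, -0.96 and 0.02 with adjusted p of 0.8, 0.19 and 0.85.

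In the lists, 8 of 31 mesenchymal interactions were lower and 3 higher, including MMP2 (-1.49) and TNC (1.35), and 3 of 29 junction interactions were lower and 2 higher, including MUC1 (-2.67), CLDN3 (-3.11) and PKP3 (2.42). Over all genes tested, 10.9% were lower and 8.56% were higher. THBS1 (-1.63), SOX9 (-1.65), KLF4 (-1.19) and MBNL2 (-1.39) were lower in their lists, and FOSL1 (1.41), NECTIN1 (1.16), CTBP1 (1.2) and SRSF1 (1.2) were higher. With the vehicle control as the control group THBS1 (-0.41), SOX9 (-0.27), KLF4 (-0.22), NECTIN1 (0.94) and CTBP1 (0.65) were under the fold threshold. MIR205HG had an interaction of 1.59 (SE 0.13, adjusted p = 4.7e-10).

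The response to CKI differed between the lines for CDH1, SNAI1 and SNAI2. In a fit of 12 libraries, untreated and CKI from each line, the change in A431 less the change in MDA-MB-231 was 2.53 for SNAI1 (SE 0.2, adjusted p = 4.3e-07), which rose in A431 and fell in MDA-MB-231 cells. It was 1.97 for CDH1 (SE 0.28, adjusted p = 6.7e-05) and 1.12 for SNAI2 (SE 0.13, adjusted p = 1e-05), whose own changes did not pass the fold threshold in either line. The CDH1 value rests in part on MDA-MB-231 libraries with 11 to 44 reads of it, where its change had an adjusted p of 0.057. VIM fell in both lines, and its difference was -0.37 (95% interval -0.78 to 0.05, adjusted p = 0.13). EPCAM, with 0.31 (95% interval 0 to 0.62), and CDH2, with 0.94 (-1.61 to 3.49), did not pass. ZEB1, ZEB2 and ESRP1 had 0.46, 0.84 and 0.4, with adjusted p of 0.32, 0.17 and 0.73, and TWIST1 gave no usable value because of its absence in untreated MDA-MB-231 cells. None of the 10 members was lower and 3 were higher, where 8.87% of genes were higher and 9.62% were lower.

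Of 29 mesenchymal genes 10 had a higher and none a lower value in A431, with a median of 0.76 against -0.01 over all genes. Over all genes tested, 8.87% were higher and 9.62% were lower. FN1 was at 2.42, having risen in A431 and fallen in MDA-MB-231 cells. Of 29 junction genes 4 were higher and 2 lower, including MUC1 (3.32), CLDN3 (2.65), CDS1 (-1.63) and CGN (-1.58). KLF4 (1.99), SOX9 (2.35), SOX4 (2.04), TGFBR2 (1.62), PMEPA1 (1.49), AFDN (1.07), PTPRK (1.03) and MBNL2 (1.19) were higher in their lists and EZH2 was lower (-1.05). When vehicle control libraries stood for untreated A431, SOX9 (0.97), AFDN (0.57), PTPRK (0.55) and MBNL2 (0.86) were under the fold threshold, and with the GC and length offsets AFDN (0.79), PTPRK (0.75) and MBNL2 (0.91) were. PTPRK was 0.97 without untreated replicate 1 or CKI replicate 2 of MDA-MB-231, and EZH2 was -0.91 to -0.99 with RLE factors, with DESeq2, with no filter and without untreated A431 replicate 1 or 2.

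**Figure D5:**
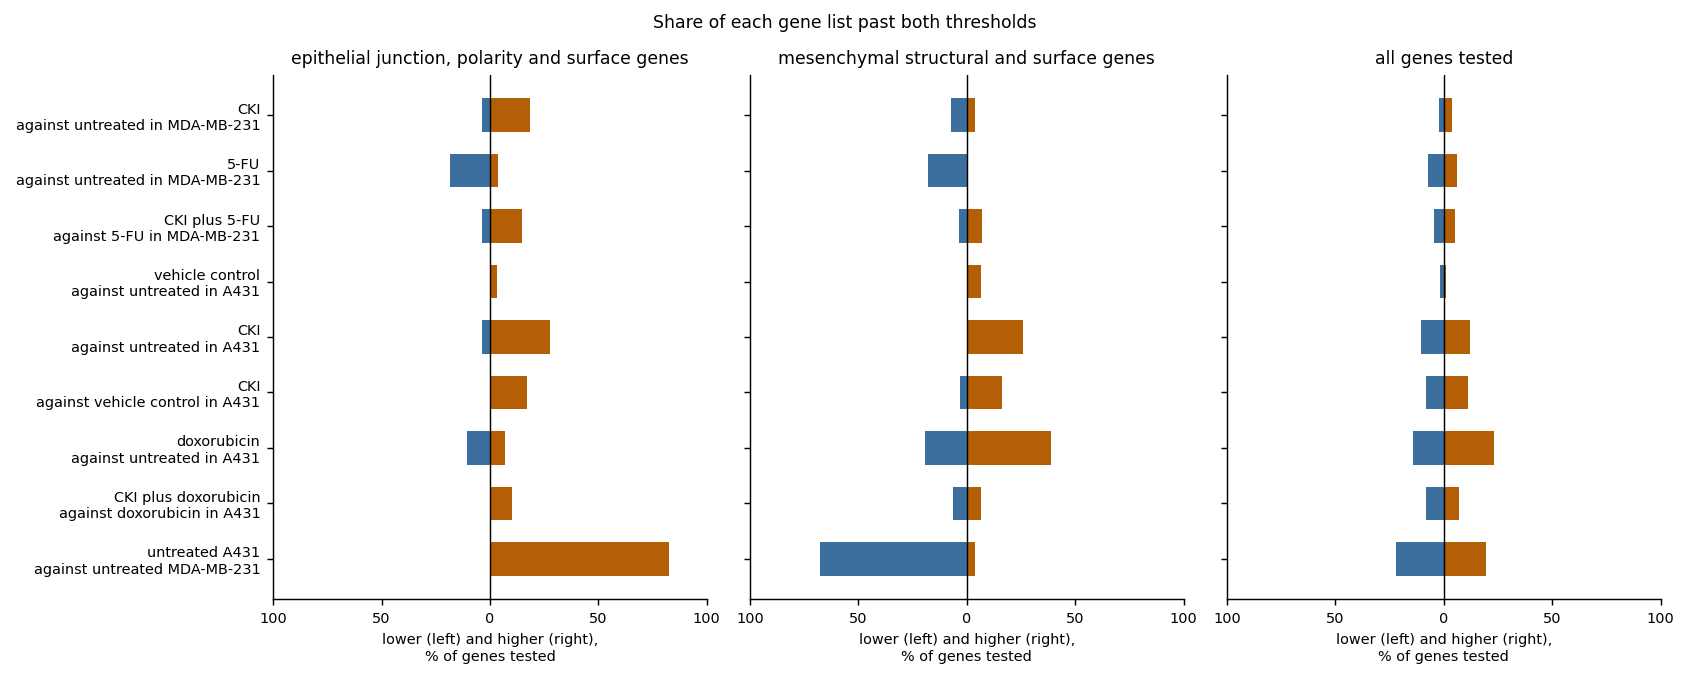
Share of the genes tested (x axis, percent) that were higher (orange, right) or lower (blue, left) past both thresholds in 9 comparisons, for the epithelial junction list, the mesenchymal list and all genes. The lists separate the untreated lines, with 24 of 29 junction genes higher and 19 of 28 mesenchymal genes lower in A431, and with CKI in A431 cells 8 genes of each list were higher.

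Over all 9 groups, the order of mean levels kept the lines apart for CDH1, EPCAM, ESRP1, VIM, ZEB1, ZEB2 and TWIST1. For these genes no library of 1 line overlapped any of the other. SNAI1, SNAI2 and CDH2 did not keep the lines apart. The share of all genes without such overlap was not counted, so this is a description of the members only. Between the untreated lines, 19.7% of all genes tested were higher and 21.8% were lower in A431. SNAI1 ran from 21.3 ± 1.63 CPM in A431 with doxorubicin through 10.8 ± 0.501 CPM with CKI and 9.95 ± 0.985 CPM with both to 8.69 ± 1.18 CPM in untreated MDA-MB-231 cells, and among these only the last 3 groups overlapped, each with the next. The lowest 4 groups, untreated and vehicle control A431 and MDA-MB-231 with CKI or with CKI plus 5-FU, lay at 3.86 to 3.98 CPM and overlapped each in turn. SNAI2 ran from 52 ± 3.48 CPM in A431 with CKI to 21.7 ± 0.182 CPM in A431 with CKI plus doxorubicin, with MDA-MB-231 groups between them. CDH2 ran from 2.13 ± 0.326 CPM in MDA-MB-231 with CKI to 0.0382 ± 0.0332 CPM in untreated A431, and A431 with CKI and the vehicle control were the only neighbours in its order that did not overlap. VIM neighbours were separate except untreated and vehicle control A431. The 4 MDA-MB-231 groups were separate for ZEB1, and no pair of neighbouring A431 groups was.

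For members that passed in at least 1 comparison within a line, the genes of most similar pattern were named by the Pearson correlation of log2 CPM over the libraries of that line, as a description. The libraries share their treatment groups, so large values are common. In the 12 MDA-MB-231 libraries these were ANXA4 and PLAAT4 for VIM (r = 0.992 and 0.99), KIRREL1 and CNTNAP3 for SNAI1 (0.975 and 0.966), DRAP1 and LOC101929479 for CDH2 (0.959 and 0.956), and HDHD5 and OLFML2A for CDH1 (0.926 and 0.925). In the 15 A431 libraries they were LNCAROD and KDM4A for CDH1 (0.991 and 0.99), SERTAD4 and NDUFC1 for VIM (0.986 and 0.984), HEXIM1 and HOXC13 for TWIST1 (0.985 and 0.978), and RAET1G and SERPINE2 for SNAI1 (0.979 and 0.978). STAT3 and ABL2 were most like CDH2 (0.97 and 0.969), and DMTF1 and PARAIL most like ZEB2 (0.919 and 0.88).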

How the data were processed

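RNA sequencing libraries of 9 groups with 3 replicates each were analysed from 1 table of raw counts per gene, deposited by the authors. Per the labels and the study's methods, the authors trimmed paired-end reads with Trim Galore 0.3.7 and aligned them with STAR 2.5.3a to hg19. The counting tool and annotation are not given in the sources used here. Per the labels the libraries were unstranded. Of 24566 rows, 24422 matched a symbol by Entrez ID. Totals were 17757206 to 22809339 counts per library.

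Counts were tested with edgeR 4.0.16 (R 4.3.3; TMM, filterByExpr, quasi-likelihood F test) in a fit per line, a fit of the untreated libraries and a fit of untreated and CKI libraries. Benjamini-Hochberg adjustment covered all genes tested, and a gene was called at adjusted p under 0.05 and absolute log2 fold change over 1. The edgeR fit and test were tried on simulated counts for some of the comparisons, and the other steps were not. All members are named. From each list, at most 2 called genes per direction are named, those of smallest adjusted p among genes whose groups did not overlap, which was not asked of interactions, and for each member called within a line the 2 genes of highest correlation. DESeq2 1.42.0, RLE factors, no filter, GC and length offsets, the replicate block, adjusted p alone and left-out libraries were tried as alternatives. Replicate numbers were not taken to pair samples. The members and lists were chosen with earlier results of these data known. VIM-AS1 and the microRNA rows were looked up after the members' values had been seen. Some genes of the lists are not reported here.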

Additional observations from a re-analysis of the deposited data

Results flagged for a closer look

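A test of the difference between 2 effects of CKI passed both thresholds for 5 members in 6 cases, and no explanation was weighed. In MDA-MB-231 cells the effect of CKI on CDH2 differed with 5-FU by -1.52 on the log2 scale. That call was lost without CKI replicate 3, 5-FU replicate 2 or 3, or CKI plus 5-FU replicate 1, at adjusted p from 0.054 to 0.069. In A431 cells the effect differed with doxorubicin by -2.43 for SNAI1 and by -2.25 for TWIST1. TWIST1 was at 4.46 ± 0.669 CPM with CKI against 2.55 ± 0.224 CPM without it, and at 4.01 ± 0.633 CPM with CKI against 11.7 ± 1.82 CPM in the presence of doxorubicin. Between the lines the effect of CKI, taken as A431 less MDA-MB-231, differed by 2.53 for SNAI1, 1.97 for CDH1 and 1.12 for SNAI2. The CDH1 value rests in part on MDA-MB-231 libraries with 11 to 44 reads of it. No test for outlying libraries was run, since each group had 3, but each comparison was refitted without each of its libraries in turn.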

How the results depend on the processing

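With adjusted p alone, the number of members past the threshold stayed at 8 between the untreated lines and at 3 for the difference between the lines, was 9 in place of 6 for doxorubicin, and rose in the other comparisons. It was 6 in place of 3 for CKI in MDA-MB-231 cells, 6 in place of 1 for 5-FU, 7 in place of 1 for CKI added to 5-FU, 6 in place of 1 for their interaction, 2 in place of 0 for the vehicle control, 8 in place of 3 for CKI in A431 cells, 7 in place of 4 for CKI against the vehicle control, 8 in place of 4 for CKI added to doxorubicin and 5 in place of 2 for their interaction. For 5-FU it was 2 with no filter on low counts and 0 with only the groups compared. Over all genes, adjusted p alone raised the calls from 835 to 5066, 1866 to 7992, 1368 to 7059, 958 to 4396, 404 to 6748, 3554 to 10648, 3100 to 10319, 2369 to 10102 and 3092 to 9117 in these comparisons in the same order, from 5925 to 12802 for doxorubicin, from 5886 to 10338 between the untreated lines and from 2745 to 6974 for the difference between the lines.

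Leaving out 1 library gave from 3 to 3 members for CKI in MDA-MB-231 cells, 1 to 2 for 5-FU, 0 to 2 for CKI added to 5-FU, 0 to 1 for their interaction and 0 to 0 for the vehicle control. It gave 3 to 4 for CKI in A431 cells, 2 to 4 against the vehicle control, 6 to 6 for doxorubicin, 3 to 4 for CKI added to it, 2 to 4 for their interaction, 8 to 9 between the untreated lines and 3 to 3 for the difference between the lines. Equal counts can hold different members. With CKI in MDA-MB-231 cells, leaving out untreated replicate 1 or CKI replicate 3 removed VIM and added CDH1.

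The fit with a replicate block left the number of members called as it was, at 3, 1, 1, 1, 0, 3, 4, 6, 4, 2, 8 and 3 in the 12 comparisons. With the block the interaction of SNAI3 with 5-FU had -2.12 and an adjusted p of 0.058. Deviations of libraries with the same number correlated at -0.21 to 0.1, so the numbers were not taken to pair the samples. The vehicle control comparison called 404 genes, 247 with GC and length offsets and 263 with only the groups compared, and its share of higher calls went from 41.1% to 60.7% with the offsets. No member changed direction past a threshold under any alternative. Of 183 values of genes named from the lists, 42 lost their call under at least 1 alternative. Depth limited CDH2 in both lines, ZEB1 and ZEB2 in A431, and CDH1, ESRP1 and TWIST1 in MDA-MB-231 cells, with at most 49 reads per library.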
